A study of Mus musculus with 12 samples.

Results

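The Kruppel-like factors are zinc-finger transcription factors, and 10 genes of the family were followed here by symbol: Klf2, Klf4, Klf6, Klf7, Klf9, Klf10, Klf12, Klf13, Klf15 and Klf16. They are 10 of the 24421 genes in the count files, all 10 were counted in every library, and all 10 had enough counts to be tested. The study measured RNA that pellets with ribosomes through a sucrose cushion (polyribosomal RNA) from the hippocampus of C57/Bl6 mice aged 6 weeks. The labels divide the libraries into 6 control and 6 fear case samples, and no transgene, deletion or drug is named for either group. The same protocol text accompanies all 12 libraries: individual housing, habituation to the test room, 8 min in an unfamiliar context, 7 min in the home cage, and collection at 15 min. How the handling of the control mice differed from this is not given in the labels, and neither is whether fear case mice were shocked. Nothing in the labels says that each library is a separate mouse. The p-values set group differences against the spread between these libraries, which may therefore be partly technical.

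Members of the family share C-terminal zinc fingers that bind CACCC and GC-rich elements, and differ in the N-terminal part that recruits coactivators or corepressors. Klf9, Klf10, Klf13 and Klf16 are known to bind the Sin3a corepressor, Klf12 binds the C-terminal binding proteins, and Klf2, Klf4, Klf6 and Klf7 act largely as activators. Several members are textbook rapid responders in other systems: Klf2 and Klf4 to fluid flow through MEF2 factors in endothelium, Klf6 to injury and serum, and Klf10 to transforming growth factor beta. Klf9 and Klf15 are direct targets of the glucocorticoid receptor. In neurons, Klf6 and Klf7 are known to favour axon growth and Klf4 and Klf9 to restrain it, and Klf9 takes part in the maturation of dentate granule cells.

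Promoter sequence was at hand for 8 of the 10 genes (RefSeq, GRCm38.p6, 250 bases before to 50 after the annotated start). The 4 printed here are those of the endothelial flow responders Klf2 and Klf4 and of Klf9 and Klf13, the members with the highest levels in these libraries. Each is given 5′ to 3′ on the gene's own strand for the 250 bases before the start, and capitals mark the cyclic AMP response element half-site (TGACG or its complement CGTCA) and the MEF2 site.
Klf2, chr8:72318812-72319061, plus strand: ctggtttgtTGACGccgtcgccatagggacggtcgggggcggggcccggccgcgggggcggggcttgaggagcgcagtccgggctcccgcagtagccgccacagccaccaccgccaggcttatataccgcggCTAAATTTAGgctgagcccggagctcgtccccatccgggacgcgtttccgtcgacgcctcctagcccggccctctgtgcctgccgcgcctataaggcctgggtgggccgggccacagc
Klf4, chr4:55532476-55532725, minus strand: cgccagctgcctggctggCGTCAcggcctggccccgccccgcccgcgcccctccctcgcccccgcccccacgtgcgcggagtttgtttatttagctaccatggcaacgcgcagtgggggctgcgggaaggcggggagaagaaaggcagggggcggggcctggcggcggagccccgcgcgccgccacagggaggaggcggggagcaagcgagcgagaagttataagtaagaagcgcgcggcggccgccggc
Klf9, chr19:23140976-23141225, plus strand: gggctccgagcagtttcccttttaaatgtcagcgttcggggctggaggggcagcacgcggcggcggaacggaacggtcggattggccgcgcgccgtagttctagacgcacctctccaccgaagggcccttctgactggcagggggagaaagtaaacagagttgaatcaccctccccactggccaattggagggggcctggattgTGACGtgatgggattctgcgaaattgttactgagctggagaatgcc
Klf13, chr7:63938916-63939165, minus strand: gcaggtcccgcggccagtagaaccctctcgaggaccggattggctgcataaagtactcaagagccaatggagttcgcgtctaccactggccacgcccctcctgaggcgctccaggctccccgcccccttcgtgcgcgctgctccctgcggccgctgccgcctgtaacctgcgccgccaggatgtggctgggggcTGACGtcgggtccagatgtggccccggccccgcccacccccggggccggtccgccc

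The half-site TGACG, part of the element that CREB binds, was found on either strand in 6 of the 8 windows and in 20.8% of 32851 mouse promoter windows of the same length. It lay at -241 in Klf2, -232 in Klf4, -46 in Klf9, -90 in Klf12 and -56 in Klf13, and at -78 and -6 in Klf15 (first base of the match relative to the start). The full element TGACGTCA was in 0 of the 8 windows (1.79% of all windows), and the CArG box of serum response factor was also in 0 (1.63%). A MEF2 site occurred once, at -118 in Klf2, against 3.19% of all windows. The GC box GGGCGG was in 6 of 8 windows (35.7% of all) and the CACCC box, the family's own kind of binding element, in 6 of 8 (57.5%). CCAAT was in 4 of 8 (37.4%), the E-box CACGTG in 3 of 8 (7.15%) and the AP-1 site TGANTCA in 1 of 8 (7.81%). Neighbouring matches overlapped at the Klf13 start (GC box with CACCC box), at the Klf15 start (half-site with E-box), in Klf9 (AP-1 site with CACCC box, and 2 CCAAT boxes) and in Klf4 (2 GC boxes). These windows are mostly rich in G and C, from 45.7% in Klf12 to 74.3% in Klf4, and a match describes letters only. The RefSeq start used for Klf12 lies well inside the longer gene that GENCODE annotates.

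**Figure D1:**
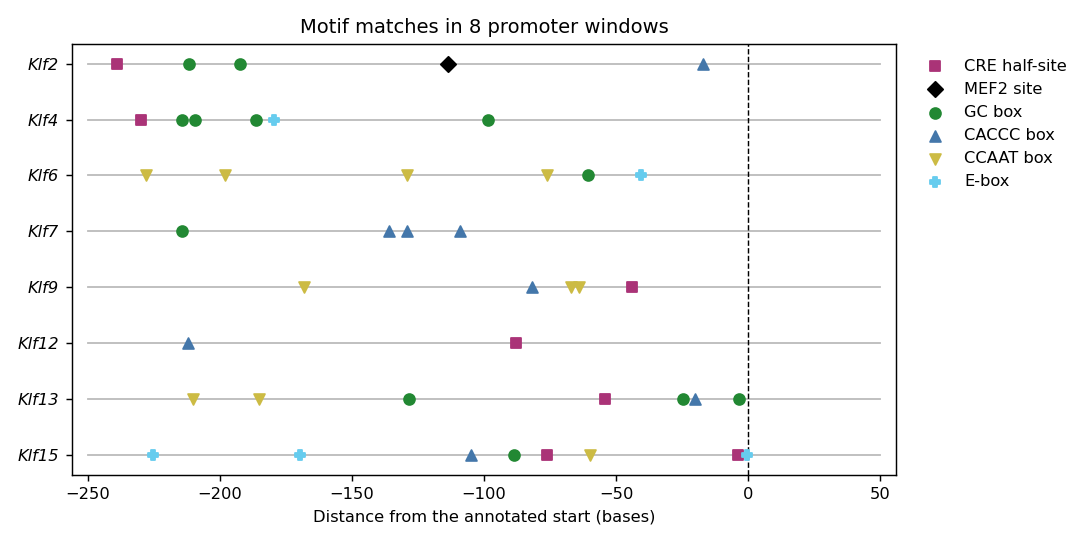
Positions of motif matches on either strand in 8 promoter windows, with the distance from the annotated start in bases on the x axis and 1 gene per row; symbols stand at the middle of each match, the dashed line is the start, and the AP-1 site is not drawn. Half-sites of the cyclic AMP response element appear in every row but Klf6 and Klf7, and the only MEF2 site is in Klf2, with its first base at -118.

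Library depth was 18.6 M to 44.2 M counts assigned to genes, with a median of 21.6 M, and fear case 6 was the deepest. Fear case 6 also had the highest share of the ribosomal RNA precursor Rn45s, 12.5% against 4.55% to 7.98% elsewhere. The neuronal markers of the hippocampus were abundant, with Snap25 at 3011 CPM and Camk2a at 2492 CPM as means over the 12 libraries (CPM: counts scaled to the TMM-adjusted library size). Fos, the immediate early gene that marks recent neuronal activity, had a log2 fold change of 2.25 (95% interval 1.78 to 2.72, adjusted p = 1.1e-05), from a mean of 4.38 CPM in control to 20.9 CPM in fear case.

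The family members differed widely in level in the hippocampal polyribosome fraction. Per kb of annotated exon, Klf9 was highest at 55.0 ± 2.38 CPM per kb (mean ± SD over 12 libraries), followed by Klf13 at 29.1 ± 1.93 and Klf16 at 16.1 ± 1.95. Klf6 at 9.63 ± 1.62, Klf12 at 8.89 ± 1.11, Klf10 at 7.74 ± 0.819 and Klf15 at 6.05 ± 0.591 CPM per kb formed the middle. Klf7 at 2.86 ± 0.475, Klf2 at 2.23 ± 0.548 and Klf4 at 0.584 ± 0.131 CPM per kb were lowest. Klf9 and Klf13 made up 39.8% and 21.1% of the summed per-length level of the 10 members, and Klf4 made up 0.422%. Of these levels, the ranges over the 12 libraries did not overlap between Klf9 and Klf13, between Klf13 and Klf16, between Klf15 and Klf7, or between Klf2 and Klf4. The neighbours from Klf16 down to Klf15 overlapped pair by pair, as did Klf7 and Klf2. Klf16 overlapped Klf6 only through fear case 6, at 11.5 CPM per kb. Its other libraries stood at 14.5 or more, and Klf6 at 12.5 or less. With the longest transcript in place of all annotated exons, the order of the middle changed to Klf10, Klf12 and Klf6 at 10.6, 10.5 and 10.01 CPM per kb, and the other places stayed. Bulk tissue cannot tell fewer cells of a type from less RNA per cell, and no input RNA was analysed here.

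**Figure D2:**
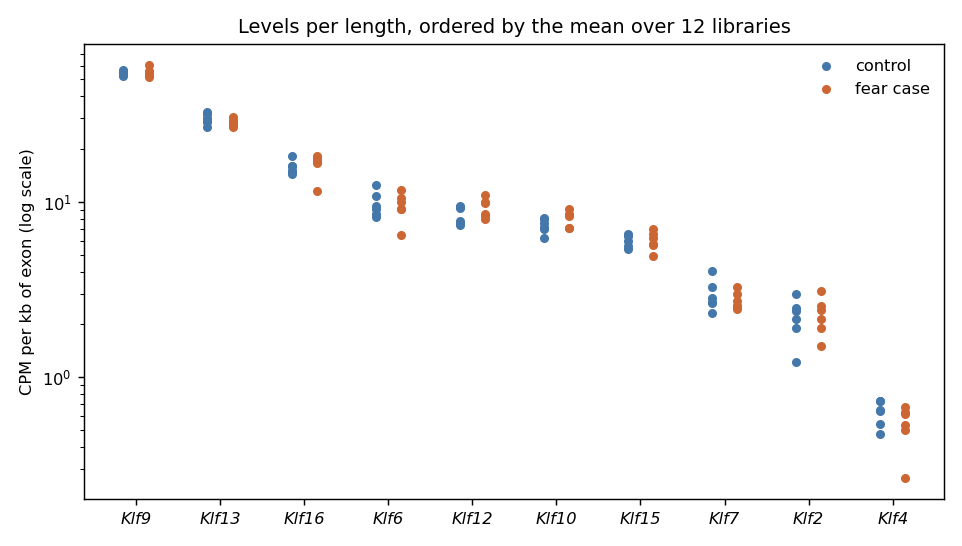
CPM per kb of annotated exon on a logarithmic y axis for each member, 1 point per library, 6 control and 6 fear case libraries side by side. Members are ordered by their mean, from 55.0 CPM per kb for Klf9 to 0.584 for Klf4, and the groups overlap for every member.

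Whether any member stood at a different level on polyribosomes in fear case than in control was tested in 1 fit over all genes. With edgeR's quasi-likelihood test, 0 of 10 members were called at an adjusted p under 0.05, where 0.103% of the 14564 genes tested were called, 0.0481% higher and 0.0549% lower. Without fear case 6 the test called 128 genes in place of 15, and still 0 members. At an unadjusted p under 0.05 the count was also 0 of 10, where 7.14% of all genes had such a p. DESeq2 and limma-voom called 0 of 10 as well, with 0.433% and 0.0824% of their genes called. The groups overlapped for all 10 members, while they did not overlap for 0.597% of all tested genes. Of the 10 log2 fold changes, 5 were positive and 5 negative, with a median of -0.0029 beside -0.0046 for all genes. A p that misses the threshold does not show equal levels, so each interval of the difference is given. The upper end of the 95% interval lay under a 1.5-fold increase for all 10 members, and the lower end lay above the matching decrease for 9 of the 10, the exception being Klf4.

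**Figure D3:**
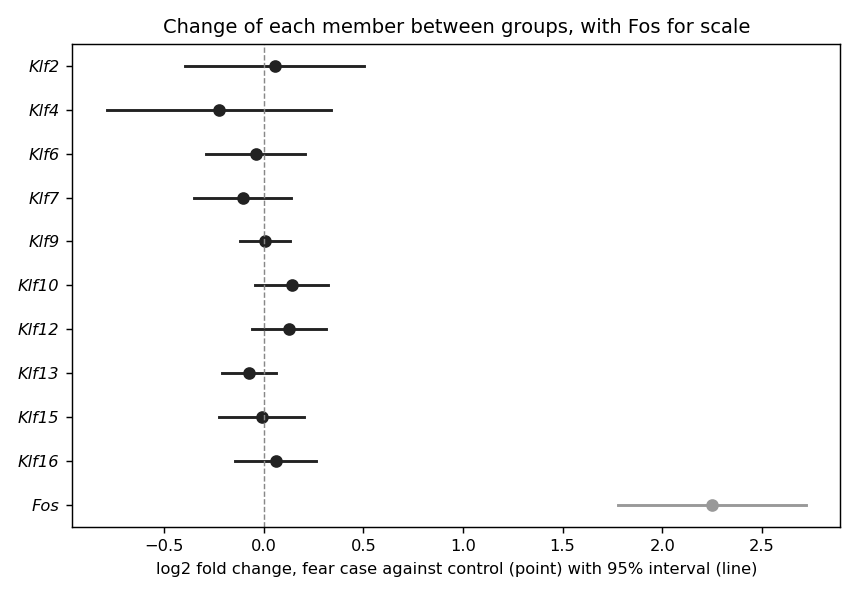
Log2 fold change of each member in fear case against control (points) with its 95% interval from edgeR (lines), and Fos for scale. All 10 member intervals cross 0, the highest end being 0.50 for Klf2, and the interval of Fos runs from 1.78 to 2.72.

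Klf10, a transforming growth factor beta-inducible repressor, had the smallest p of the family. Its control libraries stood at 26.1 CPM at the lowest, 30.9 at the median and 33.9 at the highest, and its fear case libraries at 29.8, 35.1 and 37.9 CPM. Fear case 1 to 4 lay above every control, and fear case 5 and 6 lay inside the control range. Its log2 fold change was 0.14 (SE 0.09, 95% interval -0.04 to 0.32, adjusted p = 0.769 by edgeR), or 1.10-fold. Without fear case 6 it was 0.17 (adjusted p = 0.622), and with the choroid plexus score described below as a covariate it was -0.0059 (adjusted p = 0.994). In that score only fear case 6 among fear case libraries lay within the control range, so group and score can hardly be told apart. Klf10 spans 38291463 to 38300706 on the minus strand of chromosome 15 (GRCm38).

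Klf2, best known from endothelium and from resting T cells, had 2.26, 4.21 and 5.48 CPM in control and 2.80, 4.22 and 5.76 CPM in fear case (lowest, median, highest). Control 4 and fear case 5 were the low libraries and fear case 3 the highest, so the spread lay within the groups. Its log2 fold change was 0.05 (SE 0.22, 95% interval -0.39 to 0.50, adjusted p = 0.981). As a ratio of fear case to control, this interval runs from 0.761 to 1.42. The gene spans 72319033 to 72321656 on the plus strand of chromosome 8.

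Klf4, a reprogramming factor expressed by endothelium and epithelia in adult tissue, was the scarcest member, at 31 to 44 reads per control library and 19 to 61 per fear case library. In CPM it ran from 1.45 over a median of 1.97 to 2.24 in control and from 0.809 over 1.76 to 2.06 in fear case. Fear case 1, with 19 reads, was the only library below the control range. Fear case differed from control by a log2 fold change of -0.23 (SE 0.27, 95% interval -0.79 to 0.34, adjusted p = 0.897), and -0.09 without fear case 1. At a mean of 40.0 reads, counting error alone gives a coefficient of variation of 15.8%, and the observed values were 16.5% in control and 27.6% in fear case. As a ratio, the interval of Klf4 runs from 0.579 to 1.26, the widest of the family. It spans 55527143 to 55532466 on the minus strand of chromosome 4.

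Klf6, an injury- and serum-induced activator that supports axon growth, stood at 36.2, 40.9 and 55.0 CPM in control and 28.5, 41.8 and 51.4 CPM in fear case. Fear case 3 was the lowest of all 12 libraries, while control 6 and fear case 6 were the highest. Between groups, Klf6 had a log2 fold change of -0.04 (SE 0.12, 95% interval -0.29 to 0.20, adjusted p = 0.968). With 986 reads per library on average, counting error accounts for a variation of 3.19%, and the libraries varied by 16.4% within control and 18.7% within fear case. Klf6 spans 5861482 to 5870394 on the plus strand of chromosome 13.

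Klf9, the glucocorticoid- and thyroid hormone-induced member, had the narrowest interval of the family. Its libraries stood at 253, 264 and 274 CPM in control and 249, 261 and 292 CPM in fear case. Fear case 1 was highest and the other fear case libraries lay within or just under the control range. The groups differed by a log2 fold change of 0.0052 (SE 0.06, 95% interval -0.12 to 0.13, adjusted p = 0.993), and as a ratio the interval runs from 0.921 to 1.09. Klf9 lies at 23141226 to 23168134 on the plus strand of chromosome 19.

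Klf15, the other glucocorticoid receptor target and a regulator of amino acid breakdown, stood at 15.02, 17.3 and 18.3 CPM in control and 13.7, 16.7 and 19.4 CPM in fear case. Fear case 6 was lowest and fear case 1 highest, so both ends of the range were fear case libraries. The estimated log2 fold change was -0.01 (SE 0.10, 95% interval -0.22 to 0.20, adjusted p = 0.992). Klf15 spans 90462576 to 90475238 on the plus strand of chromosome 6.

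Klf13, a Sin3a-binding member known from T cells as an activator of the chemokine gene Ccl5, stood at 200.5, 223 and 245 CPM in control and 201, 211 and 229 CPM in fear case. All 6 fear case libraries lay inside the control range, which ran from control 3 to control 6. The log2 fold change was -0.07 (SE 0.06, 95% interval -0.21 to 0.06, adjusted p = 0.838). Klf13 spans 63886351 to 63938915 on the minus strand of chromosome 7.

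Klf16, known as a regulator of dopamine receptor genes, stood at 38.6, 41.4 and 48.7 CPM in control and 30.7, 46.4 and 48.9 CPM in fear case. Fear case 1 to 5 lay between 44.7 and 48.9 CPM, above every control but control 2, while fear case 6 at 30.7 CPM was the lowest library. The log2 fold change was 0.06 (SE 0.10, 95% interval -0.14 to 0.26, adjusted p = 0.932), and 0.15 (adjusted p = 0.633) without fear case 6. Klf16 spans 80567124 to 80577321 on the minus strand of chromosome 10.

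Klf7, an activator of neurotrophin receptor genes in sensory neurons, stood at 18.9, 22.3 and 32.7 CPM in control and 19.9, 21.4 and 26.6 CPM in fear case. Control 5 was the highest library and carried most of the difference: the log2 fold change was -0.11 (SE 0.12, 95% interval -0.35 to 0.14, adjusted p = 0.881), and 0.00099 without control 5. Klf12, a repressor first described for the AP-2 alpha gene, stood at 51.9, 59.4 and 66.6 CPM in control and 55.8, 64.1 and 76.4 CPM in fear case. Fear case 1, 4 and 6 lay above every control. Its log2 fold change was 0.13 (SE 0.09, 95% interval -0.06 to 0.31, adjusted p = 0.795), and 0.07 without fear case 6. Klf7 spans 64029447 to 64122282 on the minus strand of chromosome 1 and Klf12 spans 99870632 to 100284679 on the minus strand of chromosome 14. No exon of any of the 10 members overlaps an exon of another counted gene in GENCODE. Within that annotation the unknown strand setting of the counting does not touch them through a neighbour. Counted symbols that GENCODE lacks, and the annotation used for the counting, could not be checked.

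**Figure D4:**
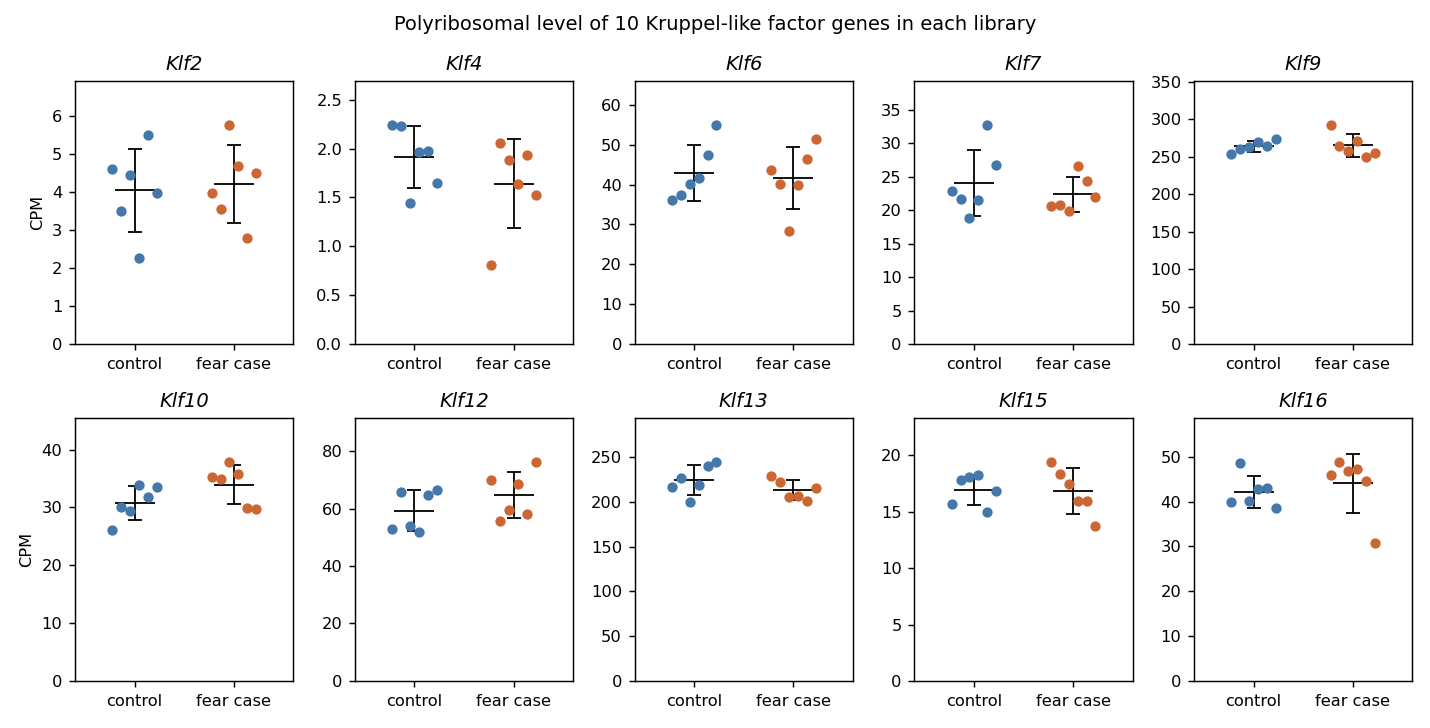
CPM of each member in each library (points), by group, with the group mean and SD (black bars, n = 6 per group); each y axis starts at 0. The groups overlap in all 10 panels, and fear case 6 stands low for Klf16 at 30.7 CPM.

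The libraries that stood high or low differed from member to member. The members' summed level ran from 670.2 CPM in control 3 to 762 CPM in control 6, with fear case 1 at 761 CPM. Control 6, fear case 1 and fear case 3 each held the highest value for 2 members, and control 3, control 4 and fear case 6 the lowest value for 2 members each. The ratio of Klf9 reads to Klf13 reads, not corrected for length, stayed between 1.10 and 1.31 over the 12 libraries. The ratio of Klf2 to Klf4 reads ran from 1.15 in control 4 to 4.89 in fear case 1. Fear case 6 departed from the mean of the other fear case libraries by 0.39 on the log2 CPM scale for Klf6 and 0.30 for Klf12, and by -0.34 for Klf15 and -0.60 for Klf16. The transcripts of Klf6 and Klf12 contain 42.4% and 45.5% G and C, and those of Klf15 and Klf16 54.9% and 60.4%. Over all tested genes with known sequence, the median departure of fear case 6 from the other fear case libraries was 0.17 in the tenth of lowest G and C content and -0.14 in the tenth of highest. The other members did not all follow that order: Klf10, at 46.9% G and C, departed by -0.22, Klf2, at 61.6%, by 0.15, and the remaining 4 by -0.06 to 0.02. The part of this library-wide trend in the departures of fear case 6 was not tested. Removing the trend from every library bears on the difference between groups: the log2 fold change of fear case against control by limma was then 0.06 for Klf15 (adjusted p = 0.942) and 0.17 for Klf16 (adjusted p = 0.807), where limma without the removal gave -0.01 and 0.05.

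**Figure D5:**
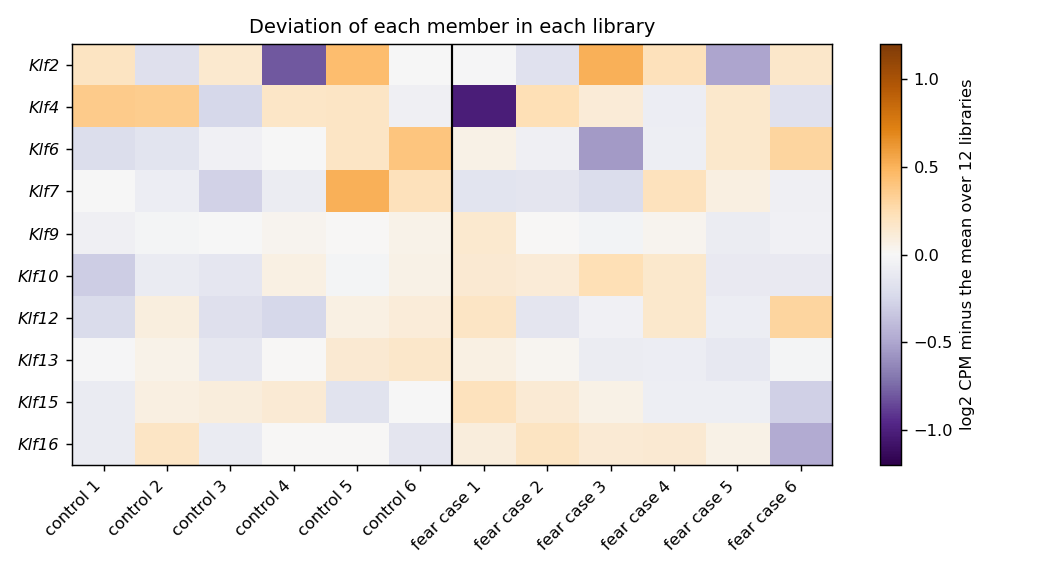
Log2 CPM of each member in each library minus that member's mean over the 12 libraries (colour), with control libraries left and fear case libraries right of the line. The strongest cell is Klf4 in fear case 1 at -1.02, and fear case 6 is high for Klf6 and Klf12 and low for Klf15 and Klf16.

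Genes whose library pattern was most like that of the 2 members of lowest p were found by the root mean square difference of centred log2 CPM over the 12 libraries, among 13503 genes of at least 1 CPM. For Klf10 these included Rap1gds1, Pip5k1a, Cep97 and Mtmr3, at differences of 0.08 each, where the median gene differed by 0.24 and Klf10 itself varied by 0.15. For Klf12 they were Camta1, Hnrnpul2, Map2, Prkca and Chd4, at 0.06 to 0.08, where the median gene differed by 0.26 and Klf12 itself varied by 0.17. All 12 values of each pair share library depth and make-up.

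No gene of the rest of the family or of its partners was called. Of 7 other Klf genes, 4 were tested and 0 passed in either direction, with log2 fold changes of -0.10 for Klf11 (adjusted p = 0.923), -0.05 for Klf3 (adjusted p = 0.932), 0.06 for Klf8 and -0.03 for Klf5. Klf1, Klf14 and Klf17, with 116, 89 and 7 reads over all 12 libraries, were below the filter. Of the 9 related Sp factors, 7 were tested and 0 passed. Sp7, the osteoblast factor, had a log2 fold change of -0.99 at 0.661 CPM (adjusted p = 0.713), and Sp4, the neuronal member, of 0.13 (adjusted p = 0.747). Among 15 cofactors and ubiquitin ligases that act on the family, 0 passed. Sin3a, the corepressor scaffold, stood at 0.15 (adjusted p = 0.701) and Itch, a ligase of Klf10, at 0.14 (adjusted p = 0.709).

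Among 17 upstream regulators 0 passed, and 2 had an unadjusted edgeR p under 0.05, where 7.14% of all genes tested had such a p. They were the mineralocorticoid receptor gene Nr3c2, with a log2 fold change of 0.18 (95% interval 0.04 to 0.33, adjusted p = 0.559), and Mef2a, an activator of Klf2 and Klf4, also with 0.18 (0.03 to 0.33, adjusted p = 0.597). Of 19 genes described elsewhere as family targets, 17 were tested and 0 passed. S1pr1, the sphingosine receptor gene that Klf2 activates in T cells, had the lowest p, with a log2 fold change of 0.37 (0.08 to 0.65, adjusted p = 0.554). Smad7, an inhibitor of transforming growth factor beta signalling, stood at -0.18 (adjusted p = 0.742). Of 13 glucocorticoid-responsive genes 0 passed, with Sgk1 at -0.09 (adjusted p = 0.820) and Errfi1 at 0.10 (adjusted p = 0.836). With DESeq2 and limma-voom 0 genes of these 6 lists were called, and apart from Nr3c2, Mef2a and S1pr1 none had an unadjusted edgeR p under 0.05. Their median log2 fold changes ran from -0.06 for the Sp factors to 0.05 for the cofactors.

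Markers of other cell types were set beside the members, since Klf2 and Klf4 are also endothelial genes. The mean log2 CPM of 15 tested endothelial markers ran from 0.99 to 1.30 in control and from 0.47 to 1.43 in fear case (difference -0.24, exact two-sided permutation p = 0.139, adjusted over 7 lists 0.323). Summed, these markers reached 41.5 to 50.8 CPM in control and 32.9 to 55.7 CPM in fear case, and none of the 16 was at 0 in all libraries. Fear case 1, the library lowest in Klf4, was also lowest in the endothelial score, and other libraries followed that order only in part. Control 2, highest of the controls in the score at 1.30, had Klf4 at 2.23 CPM, rank 11 of 12 from the lowest. Control 3, lowest of the controls at 0.99, had Klf4 at 1.45 CPM, rank 2 of 12. Fear case 6, highest in the score at 1.43, had Klf4 at 1.52 CPM, rank 3 of 12 from the lowest. Fear case 5, next lowest in the score at 0.61, had Klf4 at 1.94 CPM, rank 7 of 12. With the endothelial score as a covariate the log2 fold change of Klf4 was -0.10 and that of Klf2 0.11, where the fit without covariates gave -0.23 and 0.05. Choroid plexus markers, genes of the secretory epithelium in the ventricles, summed to 796 to 2264 CPM in control and 29.7 to 1566 CPM in fear case. Their score differed by -2.56 (exact two-sided permutation p = 0.0130, adjusted 0.0909, smallest p possible over 924 relabellings 0.00216), and fear case 6 was the only fear case library within the control range. All 14 choroid plexus genes had negative log2 fold changes, 13 of them with an unadjusted edgeR p under 0.05, and 0 were called. Without fear case 6 all 14 were called lower, and their median log2 fold change went from -1.52 to -2.61. Over all genes 128 were then called, 116 of them lower. Choroid plexus scores were 3.53 to 4.57 in control and -1.13 to 2.61 in fear case 1 to 5. Group and score can therefore hardly be told apart in a fit with both. With this score as a covariate the edgeR estimate for Klf12 was 0.24 (adjusted p = 0.661, unadjusted under 0.05). That for Klf16 was -0.20 (adjusted p = 0.696) and that for Klf4 was -0.47 (adjusted p = 0.802). The scores of the other lists differed by -0.22 for mural cells, -0.0020 for astrocytes, -0.06 for microglia, -0.09 for oligodendrocytes and 0.02 for neurons, with adjusted exact permutation p of 0.323 to 0.976. Of the blood cell list 1 of 5 genes was tested, Alas2 with 787 reads over all 12 libraries, and 4 haemoglobin genes are listed at 0 in every library. Alignments that were not unique had not been counted, so these zeros do not measure blood content. The part of these markers in the member values was not tested beyond the covariates.

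Abundant markers of each list show the scale of these cell types, with values as mean ± SD in control and then in fear case (n = 6 each). The endothelial glucose transporter Slc2a1 stood at 10.2 ± 2.34 and 10.1 ± 3.13 CPM, and the tight junction gene Ocln at 6.78 ± 1.59 and 6.84 ± 1.36 CPM. Of mural genes, Rgs5 stood at 12.4 ± 2.18 and 13.5 ± 2.76 CPM and the smooth muscle actin Acta2 at 9.08 ± 4.35 and 7.14 ± 2.93 CPM. The groups overlap for all 4 of these vascular genes. They do not stand for their lists: 11 of 15 tested endothelial genes had negative log2 fold changes (median -0.12) and 7 of 9 mural genes did (median -0.22), with 0 called. The lowest endothelial value was that of the angiopoietin receptor gene Tek, named after its value was seen, at -0.87 (adjusted p = 0.603 by edgeR), which also had an unadjusted p under 0.05 where no other gene of both lists did. The choroid plexus transcript Ttr stood at 1121 ± 486 and 326 ± 503 CPM, and Kl at 50.8 ± 12.2 and 25.1 ± 17.4 CPM, with the fear case range of each reaching into that of control through fear case 6. The astrocyte genes Slc1a2 and Aldoc stood at 1033 ± 153 and 1128 ± 320 CPM and at 300.2 ± 10.5 and 284 ± 20.2 CPM. The microglial gene Cx3cr1 stood at 15.7 ± 1.92 and 15.6 ± 2.46 CPM, and the myelin gene Mbp at 506 ± 53.7 and 450.2 ± 55.0 CPM.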

How the data were processed

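The deposited values are raw whole-number read counts by gene symbol, with 1 table for each library. Of tools, the submitters' processing notes list HTSeq, Bowtie, TopHat and cutadapt, and of builds mm10, with versions, annotation and strand setting not given in the sources used here. Per the labels' protocols, RNA pelleted in 4 h through 1 M sucrose was made into libraries (SMARTer kit) and read as 40 bp pairs. Reads on no gene were 25.5% to 33.3% of assigned, unassigned and ambiguous counts together, and these lines stayed out of library sizes and tests. Alignments that were not unique, 67.8 M to 115 M records per library, had not been counted.

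Members and lists were chosen with earlier results of these data known. Genes were filtered by filterByExpr (minimum count 10, total 15), scaled by TMM and tested without covariates by edgeR 4.0.16 in R 4.3.3, with Benjamini-Hochberg adjustment over all 14564 genes tested. The SE is the log2 fold change over the square root of F, and the 95% intervals use the moderated degrees of freedom. Log2 CPM has a prior count of 2. Alternatives were RLE scaling, no filter, DESeq2 1.42.0, limma-voom (limma 3.58.1), a replicate block, marker scores as covariates, each library left out and, added after seeing the data, removal of a GC trend per library and limma on log2 CPM. Coordinates and lengths come from GENCODE vM21 (GRCm38, the assembly of mm10), which holds 23376 of the 24421 symbols, and GC content, known for 96.3% of tested genes, from its longest transcripts. All members were named, with, per list, every called gene and the 2 of lowest p, the 5 nearest genes of 2 members and the 2 most abundant genes of each marker list, of which some are not reported here; Fos, Klf5, Klf8 and the 3 untested Klf genes were named after their values were seen. At the median depth 1 CPM is 21.6 counts, and intervals and counting errors cover these libraries only. Every pair of libraries within a group differed by more than sampling noise.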

Additional observations from a re-analysis of the deposited data

Results flagged for a closer look

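Of 20 groups of 6 values (10 members in control and in fear case), 1 held a library far from the others. A test at 1 in 20 flags about 1 of 20 independent groups by chance. These groups share their libraries, so that rate is only a guide. Klf16 stood at 30.71 CPM in fear case 6, and the next fear case library was at 44.7 CPM. The gap was 0.768 of the group's range, above the critical value of Dixon's test for 6 values. Fear case 6 was also the deepest library and the one richest in Rn45s. The part of this in the Klf16 value was not tested.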

How the results depend on the processing

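The count of 0 members called held under all 21 alternatives, and the lowest adjusted p of any member was 0.514 (Klf12, endothelial score as covariate). Over all genes, 15 were called; the count was 37 without the filter, 63 with DESeq2, 5 with the choroid plexus covariate, 8 with the endothelial covariate, 41 with the GC trend removed and 35 with limma on log2 CPM. Leaving out 1 library gave 9 (without control 3 or fear case 2) to 128 (without fear case 6). The cause was not tested. Some member log2 fold changes turned sign. With the choroid plexus covariate, which can hardly be told apart from group, Klf6 was 0.13, Klf9 -0.0080, Klf10 -0.0059 and Klf16 -0.20. In the main fit Klf10 was 0.14 and Klf16 0.06. With the endothelial covariate Klf9 was -0.022 and Klf16 -0.041. With the GC trend removed Klf13 was 0.0061 and Klf15 0.060. With 1 library left out, Klf2 ran from -0.066 to 0.16, Klf6 from -0.11 to 0.046, Klf7 from -0.17 to 0.00099, Klf9 from -0.027 to 0.022 and Klf15 from -0.060 to 0.042, so their directions depend on single libraries. Klf4 (negative) and Klf12 (positive) kept their sign in all 21. With the replicate block 18 genes and 0 members were called. The labels do not say whether the numbers pair the libraries. Same-numbered libraries correlated at -0.17 to 0.047, and 2 of 6 matched their own number best. These correlations cannot decide it, since library make-up also enters them. Klf2 and Klf4 had the fewest reads, at means of 94.8 and 40.0, where counting error gives a coefficient of variation of 10.3% and 15.8%. The observed values in control and in fear case were 27.1% and 24.3% for Klf2 and 16.5% and 27.6% for Klf4.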
